A study of Mus musculus with 2 samples.

Results

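A set of 10 genes of ribosomal RNA synthesis and the nucleolus was examined in the facial prominences of the mouse embryo: the RNA polymerase I (Pol I) subunit genes Polr1a, Polr1b, Polr1c and Polr1d, the Treacle gene Tcof1, the rDNA transcription factor gene Ubtf, and the nucleolar protein genes Nolc1, Ncl, Fbl and Npm1. They were taken by gene identifier, without its version, from the deposited gene and transcript files, where they made up 10 of 43346 genes and 49 transcripts. The tissue was whole embryonic facial prominence of strain B6NCrl embryos at 11.5 days, and total RNA was sequenced from 2 pools in 1 group. Library 1 came from 109 embryos and library 2 from 88, each with both sexes mixed, from 10 ng of RNA above 200 nt to which spike-ins were added. No treated, mutant or older group was set against these pools, and no test between groups was possible. Each value is therefore that of a mixed dissection, in which fewer cells of a type and less RNA per cell cannot be told apart.

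Pol I transcribes the ribosomal RNA genes in the nucleolus, where the transcript is cut, modified and assembled into ribosomal subunits. The facial prominences are filled with neural crest mesenchyme, and mutations of human TCOF1, POLR1B, POLR1C or POLR1D cause Treacher Collins syndrome, a disorder of the facial bones. Mutations of human POLR1A cause a related disorder, acrofacial dysostosis of the Cincinnati type.

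Library 1 held 30849058 expected counts and library 2 held 31600302. Spike-ins took 15.4% of the length-scaled transcript abundance (TPM, which sums to the same total in every library) in library 1 and 15.8% in library 2, so all TPM values lie below those scaled over genes alone. Levels of 12 markers of facial mesenchyme were examined. All 12 were detected, with means from 12.6 to 263 TPM, and none was at 0. By the same rule, all 5 markers each of surface epithelium, neurons, erythroid cells, endothelium and skeletal muscle were detected. Of the white blood cell markers, 3 of 4 were. Detection alone therefore does not check the tissue label.

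All 10 genes reached 1 TPM in both libraries, against 58.5% of 21474 protein-coding genes, and all 10 also reached 10 TPM, against 36.8%. Their means ran from 16.5 TPM for Polr1b to 1044 TPM for Npm1, with a median of 65.9 TPM, beside a median of 3.45 TPM over all protein-coding genes. In order of mean level they were Npm1, Ncl, Polr1d, Polr1c, Nolc1, Ubtf, Fbl, Tcof1, Polr1a and Polr1b. The values of neighbours in that order overlapped between libraries for Polr1d and Polr1c and for no other pair. The largest and second largest subunits stood at the low end, and the abundant RNA-binding proteins of the nucleolus at the high end.

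**Figure D1:**
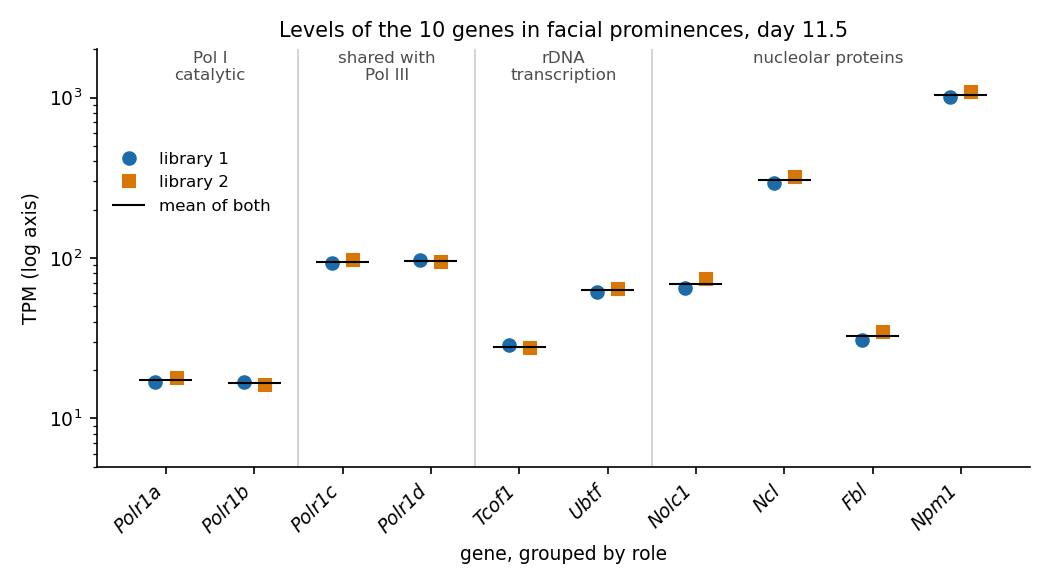
TPM of each gene on a log axis in library 1 (circles) and library 2 (squares), with the mean of both as a bar, grouped by role. The 2 libraries lie close together for every gene, and the means run from 16.5 TPM for Polr1b to 1044 TPM for Npm1.

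The catalytic core of Pol I is formed by the products of Polr1a, the largest subunit, and Polr1b, the second largest. Polr1a (chr6:71909053-71984935, GRCm38) had 16.84 TPM in library 1 and 17.84 TPM in library 2, a mean of 17.3 ± 0.707 TPM (SD, n = 2). Polr1b (chr2:129100995-129126594) had 16.82 and 16.21 TPM in library 1 and library 2, a mean of 16.5 ± 0.431 TPM. The level of Polr1a over that of Polr1b was 1.00 in library 1 and 1.1 in library 2. These partners of the active centre were thus measured at nearly equal levels per length. Polr1a lay at percentile 70.2 and Polr1b at percentile 69.5 of the protein-coding genes. One coding transcript, of 1135 residues, took 95.12% of the Polr1b TPM in library 1 and 94.66% in library 2.

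Polr1c and Polr1d encode RPAC1 and RPAC2, partners in a heterodimer that Pol I shares with Pol III, the polymerase of 5S and transfer RNAs. Polr1c (chr17:46243920-46248054) had 92.39 TPM in library 1 and 96.64 TPM in library 2, a mean of 94.5 ± 3.01 TPM (SD, n = 2). Polr1d (chr5:147077050-147111597) had 97.70 and 93.61 TPM in library 1 and library 2, a mean of 95.7 ± 2.89 TPM. Over whole genes, the level of Polr1d over that of Polr1c was 1.06 in library 1 and 0.969 in library 2. Polr1c was 5.49 times as high as Polr1a in library 1 and 5.42 times in library 2. Against the largest subunits of both polymerases added together, Polr1a and Polr3a, Polr1c was 3.64 times as high in library 1 and 3.48 times in library 2. The shared subunit genes were therefore measured, as whole genes, well above the summed level of these largest subunits. Other subunits were higher, with means of 75.8 TPM for Znrd1 of Pol I and 76.0 TPM for Polr3k of Pol III. The excess thus rests on the subunits chosen for the sum, and does not hold for every choice.

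The equality of Polr1d and Polr1c did not hold for the transcripts that encode the subunits. Polr1d has 2 coding transcripts, and the one for the 133-residue RPAC2 protein took 39.24% of the TPM of the gene in library 1 and 39.18% in library 2. The other, for a protein of 126 residues, took 60.76% in library 1 and 60.82% in library 2, 1.55 times the level of the RPAC2 transcript in both libraries. The coding parts share 26 bases, the first of each, and then continue into different exons. Both coding starts are printed from the annotated transcripts (GENCODE M21), with the shared bases in lower case and the first 60 bases of each own part in capitals, to show where the forms separate.
Polr1d 133-residue form: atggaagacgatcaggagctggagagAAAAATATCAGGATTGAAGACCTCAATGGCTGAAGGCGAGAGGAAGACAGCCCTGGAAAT
Polr1d 126-residue form: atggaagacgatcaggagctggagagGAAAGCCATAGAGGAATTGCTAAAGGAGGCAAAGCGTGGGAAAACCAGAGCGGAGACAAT
The capitals of the RPAC2 form lie at chr5:147078535-147078594 and those of the other form at chr5:147101229-147101288, both on the plus strand. The RPAC2 transcript had 38.34 TPM in library 1 and 36.68 TPM in library 2. Over the Polr1c transcript for the complete 346-residue RPAC1 protein, this was 0.568 in library 1 and 0.561 in library 2. Over the sum of Polr1a and Polr3a, the RPAC2 transcript was 1.51 times as high in library 1 and 1.32 times in library 2.

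Polr1c also had a second coding form. The complete form took 73.0% of the TPM of the gene in library 1 and 67.7% in library 2, and a form of 260 residues took 24.3% and 29.2% in library 1 and library 2. The 780 coding bases of the shorter form lie wholly within the 1038 of the complete one. The posterior SD of its count was 16.6% of the count in library 1 and 12.8% in library 2, of the order of the difference between its shares. A processed pseudogene of Polr1d, Gm12751 (chr4:34354043-34354423), matched the coding sequence of the 126-residue form over 381 nt with 100% identity. It was assigned 167 counts in library 1 and 193 in library 2, beside 2126 and 2073 counts for Polr1d in library 1 and library 2. Adding them would give Polr1d a mean of 104 TPM.

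Among the 9 other Pol I subunit genes fixed as a list, all 9 were detected, with a median of 75.8 TPM. The highest were Polr2f with 276 TPM in library 1 and 287 TPM in library 2, Polr2e with 217 and 200.0 TPM, and Polr2k with 160 and 180 TPM, all of which Pol II and Pol III use as well. The lowest was Cd3eap, a Pol I specific subunit gene, with 21.4 TPM in library 1 and 18.6 TPM in library 2. Polr1a and Polr1b lay below it, the lowest of all 13 Pol I subunit genes measured. The largest subunits of the other polymerases were Polr2a of Pol II, with 42.8 and 38.7 TPM in library 1 and library 2, and Polr3a of Pol III, with 8.53 and 9.95 TPM. Polr2a was thus 2.54 times as high as Polr1a in library 1 and 2.17 times in library 2, while Polr1a was 1.97 and 1.79 times as high as Polr3a. The 11 Pol III specific genes were all detected, with a median of 16.6 TPM, Polr3a the lowest and Polr3k, Polr3d and Polr3c the highest with means of 76.0, 29.7 and 27.5 TPM. The 4 Pol II subunit genes had a median of 96.5 TPM, with Polr2j the highest at a mean of 201 TPM, then Polr2c at 113 TPM and Polr2b at 80.5 TPM. In all 3 polymerases the largest subunit was measured below the median of the list given here, by mean TPM. These lists are unlike. The Pol I list leaves out Polr1a and holds subunits that all 3 polymerases use, which the Pol II and Pol III lists leave out.

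**Figure D2:**
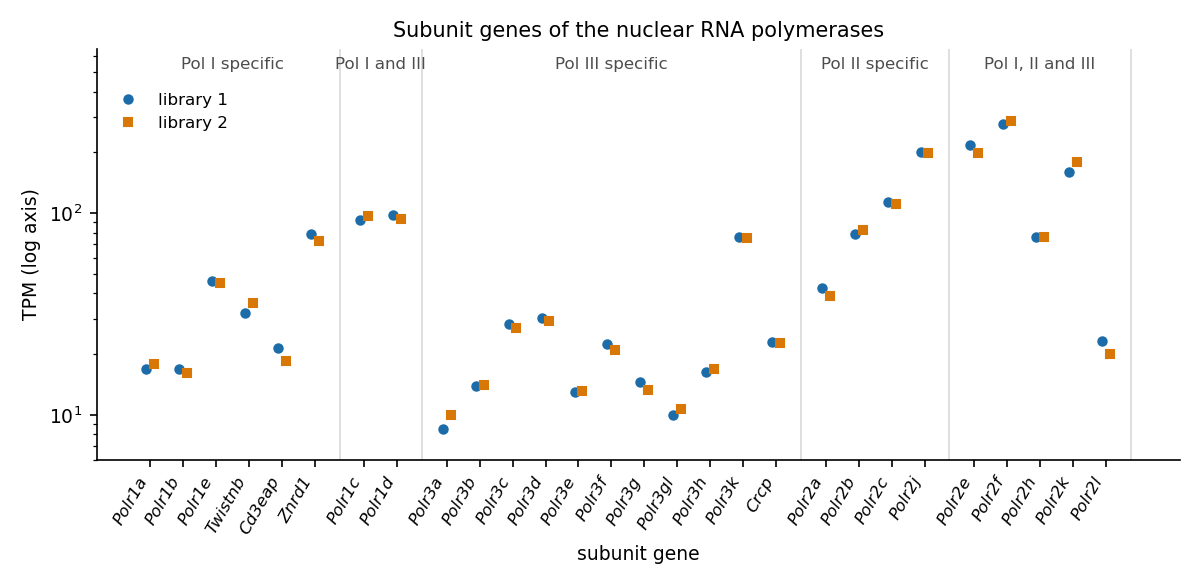
TPM of polymerase subunit genes on a log axis in library 1 (circles) and library 2 (squares), grouped by the polymerases that use them. Polr1a and Polr1b lie near 17 TPM, Polr1c and Polr1d near 95 TPM, Polr3a at 8.53 and 9.95 TPM and Polr2a at 42.8 and 38.7 TPM in library 1 and library 2.

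Ubtf encodes UBF, an HMG-box protein that binds along the rDNA and opens it for Pol I. Ubtf (chr11:102304560-102319742) had 61.53 TPM in library 1 and 63.86 TPM in library 2, a mean of 62.7 ± 1.65 TPM (SD, n = 2). This was 3.65 times the level of Polr1a in library 1 and 3.58 times in library 2. It was close to Rrn3, which encodes the factor TIF-IA that recruits Pol I, with Ubtf over Rrn3 at 1.04 and 1.02 in library 1 and library 2. An exon of 111 nt in Ubtf encodes 37 residues. In mammals, UBF1 carries a stretch of the second HMG box that UBF2 lacks, and UBF1 is the stronger activator of rDNA transcription. The exon is printed in capitals, between 20 bases of each neighbouring exon in lower case that the skipping transcript Ubtf-205 joins directly.
Ubtf cassette exon: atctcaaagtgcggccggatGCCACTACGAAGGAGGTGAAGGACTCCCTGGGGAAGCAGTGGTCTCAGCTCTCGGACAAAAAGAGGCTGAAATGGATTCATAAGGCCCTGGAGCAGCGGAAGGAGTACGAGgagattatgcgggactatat
The exon lies at chr11:102310926-102311036 on the minus strand. Transcripts that include it with exactly these bounds took 46.0% of the Ubtf TPM in library 1 and 49.96% in library 2. Transcripts that span its place without an exon of these bounds took 53.6% and 49.9%. Inclusion of this exact exon was thus 48.0 ± 2.79% (SD, n = 2). All included transcripts with a measured share encode 764 residues, the length of UBF1. The other spanning transcripts encode 727 residues, the length of UBF2, with 37.5% in library 1 and 34.4% in library 2, or 752 residues, with 16.1% and 15.5%. Where the 752-residue form differs from the 727-residue form was not examined, so whether it skips the whole exon is not known. The share of the 764-residue forms was above that of the 727-residue forms in both libraries. By share of expected counts, inclusion was 47.3% in library 1 and 49.4% in library 2.

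Which single Ubtf transcript was the most abundant differed between libraries, although the exon share did not differ by more than 4 points. Ubtf-202, which includes the exon, took 30.80% of the TPM in library 1 and 19.57% in library 2. Ubtf-206, which includes it too and encodes a protein of the same length, took 9.08% in library 1 and 22.38% in library 2. The posterior SD was 13.5% and 17.6% of the count for Ubtf-202 and 36.4% and 14.6% for Ubtf-206 in library 1 and library 2. Sums over an exon were therefore steadier than single transcripts that differ outside it.

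The 7 other genes of Pol I initiation and termination were all detected, with a median of 24.2 TPM. Rrn3 was the highest, with 59.2 TPM in library 1 and 62.4 TPM in library 2. Tbp, the TATA-box binding protein of the selectivity complex, had 48.0 and 51.1 TPM, and Taf1d, another part of that complex, had 35.9 and 37.4 TPM. The lowest was Ttf1, the termination factor, with 8.18 and 8.09 TPM in library 1 and library 2.

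Treacle, the product of Tcof1, is a nucleolar phosphoprotein that binds Pol I and the rDNA factor UBF. Tcof1 (chr18:60813755-60848971) had 28.47 TPM in library 1 and 27.37 TPM in library 2, a mean of 27.9 ± 0.778 TPM (SD, n = 2) at percentile 77.7. Its level over that of Polr1a was 1.69 in library 1 and 1.53 in library 2. The coding transcripts differ by an exon of 108 nt, which adds 36 residues and keeps the reading frame (chr18:60827340-60827447). Transcripts with the exon took 25.7% of the Tcof1 TPM in library 1 and 36.0% in library 2, and those without it took 70.7% and 63.6%. The skipping form was the more abundant in both libraries. The posterior SD of the main transcript with the exon was 13.1% of its count in library 1 and 13.8% in library 2, and whether the shift exceeds the spread between pools cannot be tested with 2 libraries.

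The nucleolar proteins spanned the widest range. Npm1 encodes nucleophosmin, the abundant chaperone of the granular part of the nucleolus. Npm1 (chr11:33152287-33163206) had 1001 TPM in library 1 and 1086 TPM in library 2, a mean of 1044 ± 60.05 TPM (SD, n = 2) at percentile 99.7. This was 59.4 times the level of Polr1a in library 1 and 60.9 times in library 2. Ncl encodes nucleolin, an RNA-binding protein of the dense and granular parts. Ncl (chr1:86344719-86359400) had 291.6 and 317.2 TPM, a mean of 304 ± 18.1 TPM at percentile 98.0. With all deposited Ncl transcripts included, Npm1 over Ncl was 3.43 in library 1 and 3.42 in library 2. The short transcript Ncl-205, described below, took 27.28% of that Ncl level in library 1 and 23.90% in library 2.

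Nolc1 encodes Nopp140, a phosphoprotein related to Treacle in the make-up of its repeats. Nolc1 (chr19:46075863-46085530) had 64.54 TPM in library 1 and 73.73 TPM in library 2, a mean of 69.1 ± 6.50 TPM (SD, n = 2). Nolc1 over Tcof1 was 2.27 in library 1 and 2.69 in library 2, so Nopp140 mRNA was the higher of this related pair in both. Fbl encodes fibrillarin, the methyltransferase of the box C/D small nucleolar ribonucleoproteins (snoRNPs). Fbl (chr7:28169710-28179269) had 30.62 and 34.48 TPM in library 1 and library 2, a mean of 32.6 ± 2.73 TPM. The genes for its partners in the same particle were higher. Nop56 had 268 TPM in library 1 and 301 TPM in library 2, 8.75 and 8.74 times the level of Fbl. Nop58 had 227 and 261 TPM, 7.42 and 7.58 times the level of Fbl.

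The gap was smaller when reads assigned to a copy were added to Fbl. The intronless copy of Fbl on chromosome 17 is annotated on both strands, as the pseudogene Gm5812 (chr17:6121208-6122164, minus strand) and as the last exon of a non-coding Tulp4 transcript, Tulp4-211, on the plus strand. These annotations overlap by 677 nt. The Tulp4-211 exon matched the reverse complement of the Fbl mRNA over 690 nt at 99.6% identity, as 1 block against 6 exon blocks of Fbl. All 3 differences lie in the first 41 bases of the match, which are printed 5′ to 3′ on the strand of the Fbl mRNA with the differing bases in capitals.
Fbl: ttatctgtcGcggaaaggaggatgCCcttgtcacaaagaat
Fbl copy in Tulp4-211: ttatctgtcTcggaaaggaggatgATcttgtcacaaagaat
The Fbl bases lie at chr7:28174990-28175030 on the plus strand, within the coding sequence, and the copy at chr17:6121844-6121884 on the minus strand. Counted from the first base of the annotated Fbl transcript, the differences are G416T, C431A and C432T, and the 664 bases after them are identical. Tulp4-211 was assigned 298 counts in library 1 and 292 in library 2, and Gm5812 was assigned 138 and 119. Further Tulp4 transcripts matched Fbl in the opposite orientation below the identity of 95% required of a copy, and were not added. Among them, Tulp4-208 matched over 433 nt at 92.4% and was assigned 633 counts in library 1 and 547 in library 2. How many of its counts lie in the match was not examined. Fbl itself had 665 counts in library 1 and 763 in library 2, with a posterior SD of 4.72% and 4.30% of the count. With Tulp4-211 and Gm5812 alone added, Fbl would have 50.7 TPM in library 1 and 53.1 TPM in library 2, and Nop56 would be 5.29 and 5.68 times as high. Reads from the identical bases cannot be told apart between the gene and its copy, and no source used here gives the strand setting of the counting.

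All 7 snoRNP protein genes were detected, with a median of 139 TPM. Nop56 was the highest, then Snu13, of the same box C/D particle, with 265 TPM in library 1 and 259 TPM in library 2. The lowest was Gar1, of the box H/ACA particle that makes pseudouridine, with 35.9 TPM in library 1 and 33.6 TPM in library 2, above Fbl as deposited in library 1 and below it in library 2. The 18 genes of ribosomal RNA processing and ribosome assembly were all detected, with a median of 45.4 TPM. The highest were Emg1, a methyltransferase of the small subunit, with 189 TPM in both libraries, Rrp1 with 171 TPM in library 1 and 159 TPM in library 2, and Wdr43 with 74.1 and 70.1 TPM. The lowest was Npm3, a relative of Npm1, with 13.01 TPM in library 1 and 11.5 TPM in library 2. Npm1 was 76.9 times as high as Npm3 in library 1 and 94.6 times in library 2. Over the 6 lists together, 56 of 56 genes reached 1 TPM and 52 reached 10 TPM, against 58.5% and 36.8% of protein-coding genes.

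Npm1 was divided among several coding forms. An exon of 84 nt encodes 28 residues and keeps the reading frame. It is printed in capitals between 20 bases of each neighbouring exon, which the skipping transcript joins.
Npm1 cassette exon: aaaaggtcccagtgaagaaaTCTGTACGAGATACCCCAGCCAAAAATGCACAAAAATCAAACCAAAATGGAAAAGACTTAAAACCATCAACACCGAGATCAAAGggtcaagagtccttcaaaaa
The exon lies at chr11:33156664-33156747 on the minus strand. Transcripts with it took 59.5% of the Npm1 TPM in library 1 and 63.4% in library 2, and the transcript without it took 39.5% and 35.2%. The form of 292 residues, the main nucleophosmin, took 33.8% in library 1 and 41.8% in library 2. The skipping form of 264 residues was the most abundant by TPM in library 1, and the 292-residue form in library 2. By expected counts, the 292-residue form led in both, with 42.4% in library 1 and 50.8% in library 2. A form of 257 residues took 22.6% of the TPM in library 1 and 20.8% in library 2. The posterior SD of these 3 main forms lay between 2.46% and 3.17% of their counts, lower than for the leading transcripts of Ubtf.

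A pair of near-identical pseudogenes of Npm1, Gm14681 and Gm5611, were assigned 245 counts in library 1 and 314 in library 2, 0.977% and 1.1% of the Npm1 counts. Adding them would give a mean of 1054 TPM, within the SD of the deposited mean.

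Ncl differed from the other members in the type of transcript that held its reads. Transcripts annotated as retaining an intron took 90.7% of the Ncl TPM in library 1 and 90.8% in library 2. A share of at least 50% was found in 3.6% of the 3637 protein-coding genes with such a transcript and a mean of 10 TPM. The median of those genes was 4.62% and their 90th percentile 32.8%, and Ncl lay at percentile 99.8. In the other members with such transcripts the share was 2.37% in library 1 and 2.33% in library 2 for Polr1c, 3.62% and 0.365% for Tcof1, and 0.423% and 0 for Ubtf. Polr1a, Polr1b, Polr1d, Nolc1, Fbl and Npm1 have none in the deposited files.

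**Figure D3:**
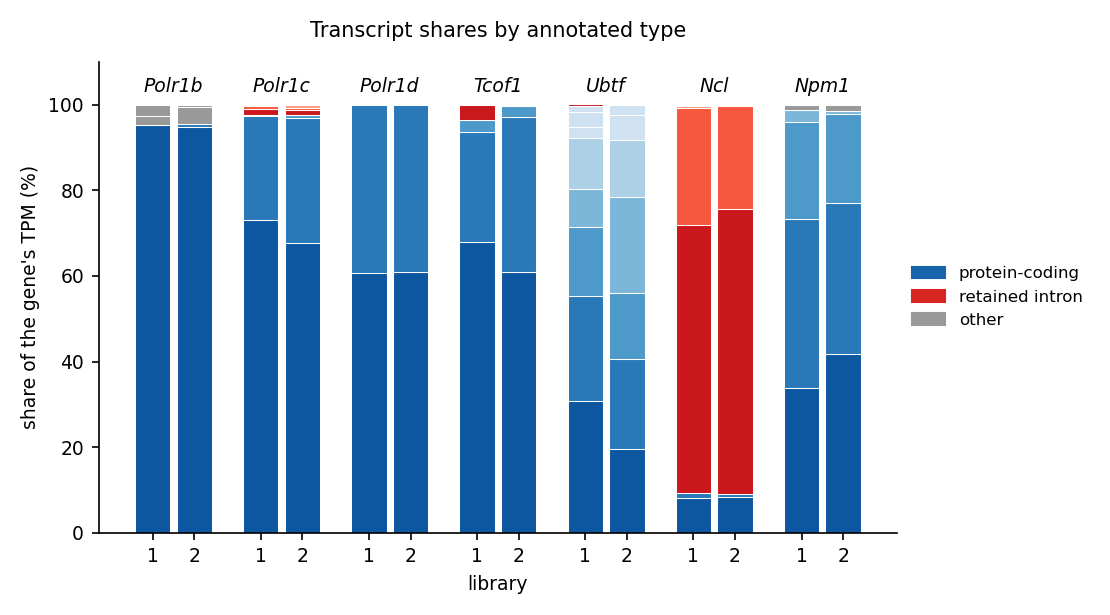
Share of each gene's TPM held by its transcripts in library 1 (left bar) and library 2 (right bar), for the 7 genes with more than 1 transcript. Blue shades are protein-coding, red shades retained-intron and grey other transcripts, each shade 1 transcript. Ncl is mostly red in both libraries, with 90.7% and 90.8%, and the other genes are mostly blue.

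The main Ncl transcript, Ncl-202, is 3072 nt long and took 62.58% of the TPM in library 1 and 66.55% in library 2, from 11122 and 13099 expected counts. Of its bases, 77.8% lie in exons of the coding model and 22.2%, or 682 nt, in introns 9 and 10. Intron 9 is 492 nt long (chr1:86352634-86353125). Intron 10 is 190 nt long (chr1:86352320-86352509, minus strand) and is printed in capitals between 20 bases of each exon, as it stands in Ncl-202, from its GT start to its AG end.
Ncl retained intron 10: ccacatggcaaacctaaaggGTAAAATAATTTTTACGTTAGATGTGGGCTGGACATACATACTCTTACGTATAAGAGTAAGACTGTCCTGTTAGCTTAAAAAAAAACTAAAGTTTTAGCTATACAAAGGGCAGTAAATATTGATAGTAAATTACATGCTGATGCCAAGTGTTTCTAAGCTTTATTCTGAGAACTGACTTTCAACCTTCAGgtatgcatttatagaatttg
The coding transcript Ncl-201 is 8202 nt long, because its last exon of 5978 nt runs 5776 nt past the end of Ncl-202. It took 8.05% of the TPM in library 1 and 8.44% in library 2, from 3897 and 4526 counts. Of the 6 deposited Ncl transcripts, 1 has both introns spliced, and that is Ncl-201 with the long end. No deposited model joins full splicing to the nearer end, so reads from such an RNA could be assigned in full to none of them. The share is therefore one of reads assigned to these models, and reads within introns 9 and 10 were not analysed here.

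Another retained-intron transcript, Ncl-205, is 601 nt long and took 27.28% of the TPM in library 1 and 23.90% in library 2 from 819 and 794 counts. Without it, Ncl would have a mean of 227 TPM. By expected counts the retained-intron share of Ncl was 75.2% in library 1 and 75.3% in library 2, lower than by TPM since the coding model is the longest. The 3 small nucleolar RNA genes that lie in Ncl introns were barely counted. Snora75 had 1.30 TPM in library 1 and was at 0 in library 2, and Snord82 and Gm24148 were at 0 in both. The deposited effective length, over which counts can be assigned, was 34 nt for Snora75 and 0 for Snord82 and Gm24148. Snord82 and Gm24148 could thus hold no counts, whatever the libraries contained. All 3 RNAs are also shorter than the size selected, so their presence cannot be judged.

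**Figure D4:**
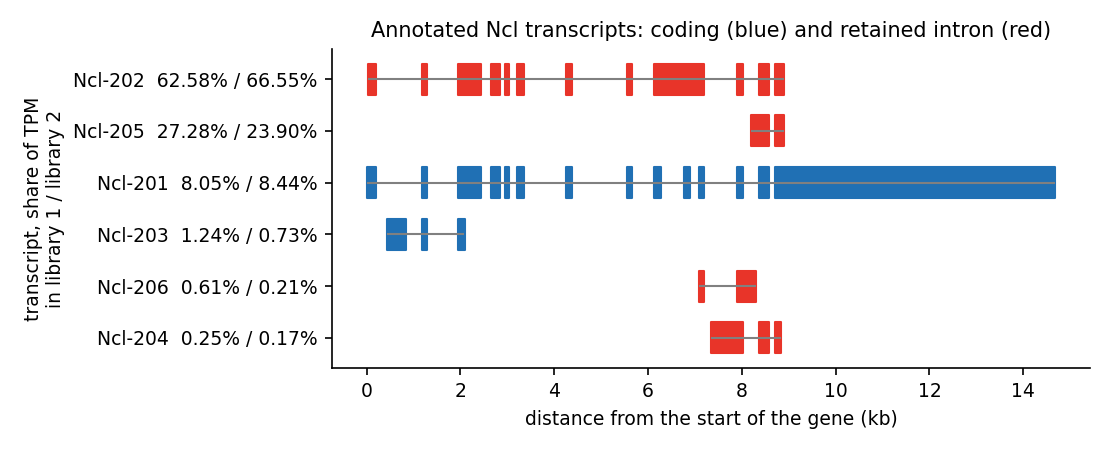
Exons (boxes) and introns (lines) of the 6 annotated Ncl transcripts by distance from the start of the gene in kb, with the share of TPM in library 1 and library 2 beside each name. The coding Ncl-201 (blue) ends in an exon of 5978 nt. Ncl-202 (red) ends within that exon, 5776 nt before the end of Ncl-201, and holds introns 9 and 10 within 1 earlier exon.

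Across the 7 members with several transcripts, the most abundant one by TPM was the same in both libraries in 5, against 93.7% of 6103 genes, and Ubtf and Npm1 were the exceptions. By expected counts it was the same in all 7. The median change of the leading share was 4.31 points in the members, beside 2.75 points over those genes.

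The members were then compared between the libraries. The measure was the ratio of scaled expected counts, library 1 over library 2, with its 95% interval (exact, Clopper-Pearson), which covers counting error alone. The interval excluded 1 in 5 of 10 members, all with library 2 higher. Over all genes with at least 20 counts in sum it excluded 1 in 39.9%, with library 2 higher in 20.4% and library 1 higher in 19.4%. Over genes with at least 500 counts in each library it excluded 1 in 49.5%, with library 2 higher in 29.7% and library 1 higher in 19.8%. Taken in either direction, the members' share is at that of the genes of like depth, and the count with library 2 higher rests on 10 genes and was not tested. Those 5 were Polr1a and, with Fbl as deposited, all 4 nucleolar protein genes.

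Nolc1 had 4678 counts in library 1 and 5440 in library 2, a ratio of 0.862 (0.828 to 0.896). Ncl had 15909 and 18463 counts, a ratio of 0.863 (0.845 to 0.882). Fbl had a ratio of 0.873 (0.786 to 0.970), from the fewest counts of any member. With the reads assigned to its copies added, 1101 counts in library 1 and 1174 in library 2, the ratio of Fbl was 0.940 (0.865 to 1.02) and spanned 1. The interval then excluded 1 in 4 members, 3 of them nucleolar protein genes, so the call for Fbl rests on how its reads were divided. Npm1, with 25089 counts in library 1 and 28622 in library 2, had a ratio of 0.878 (0.864 to 0.893). The mean transcript length by which TPM is scaled was 2760 nt in library 1 and 2888 nt in library 2 for Ncl, and 1321 and 1362 nt for Npm1, so the TPM of these genes lie closer together than their counts. Polr1a had 2074 and 2236 counts in library 1 and library 2, a ratio of 0.929 (0.875 to 0.987). The other Pol I and rDNA transcription genes spanned 1, with 1.02 (0.944 to 1.104) for Polr1b, 0.965 (0.908 to 1.03) for Polr1c and 1.03 (0.967 to 1.09) for Polr1d. Tcof1, at 0.994 (0.940 to 1.05), and Ubtf, at 0.975 (0.933 to 1.02), also spanned 1.

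**Figure D5:**
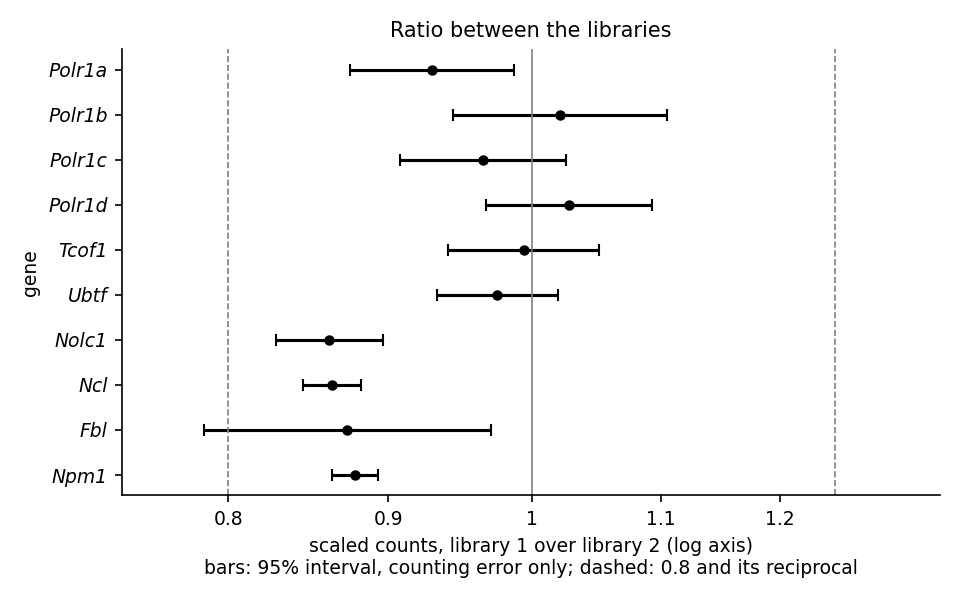
Ratio of scaled counts, library 1 over library 2, on a log axis with its 95% interval for counting error. The solid line marks 1 and the dashed lines a ratio of 0.8 and its reciprocal, and, with counts as deposited, Nolc1, Ncl, Fbl and Npm1 lie between 0.862 and 0.878 while the other 6 lie between 0.929 and 1.03.

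The size of these differences was small. No member had a ratio below 0.8 or above its reciprocal, against 4.54% of genes with a mean of 10 TPM, and 4 differed by more than 1.1-fold, against 33.2%, or 3 with the copies of Fbl added. The spread between the pools, taken as the square root of the common dispersion over 15986 genes, was 9.79%, so a ratio of 0.862 is of the order of that spread. The median log2 ratio of the 10 genes was -0.08, beside 0.00 over all genes. Scaled by spike-ins in place of genes, the interval excluded 1 in 4 members. Nolc1, at 0.897 (0.863 to 0.933), Ncl, at 0.899 (0.880 to 0.919), and Npm1, at 0.915 (0.899 to 0.931), kept library 2 higher, while Polr1a, at 0.968, and Fbl, at 0.910, spanned 1. Polr1d then had library 1 higher, at 1.07 (1.01 to 1.14), and Polr1c, Tcof1 and Ubtf moved to the other side of 1, at 1.00, 1.04 and 1.02, with intervals that spanned it.

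Of the 56 other genes of the pathway, 23 had an interval that excluded 1, or 41.1%, with library 1 higher in 8 and library 2 higher in 15. This is about the share over all genes, 39.9% of those with at least 20 counts in sum and 49.5% of those with at least 500 counts in each library. Nop56, at 0.895, and Nop58, at 0.869, the partners of fibrillarin, had library 2 higher, as did Gnl3, encoding nucleostemin, at 0.840, and Nop14, a small-subunit assembly factor, at 0.844. Library 1 was higher for Cd3eap, at 1.13, and Bop1, a large-subunit assembly factor, also at 1.13. The pathway genes thus lay on both sides of 1.

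Cell type markers were compared between the pools by the same interval, which covers counting error alone. It excluded 1 in 39.9% of genes with at least 20 counts in sum and in 49.5% with at least 500 in each library. Marker calls ran from Epcam and Hbb-y, both at 1.07 and within the spread of 9.79% between pools, to Actc1 at 0.490. Whether the cell types themselves differed was not tested. All 5 neuron markers had library 1 higher, with a summed level of 428 TPM in library 1 and 351 TPM in library 2. Endothelium markers had 145 and 120 TPM, with library 1 higher in 4 of 5. Skeletal muscle markers had 100.1 TPM in library 1 and 162 TPM in library 2, with library 2 higher in 4 of 5. Facial mesenchyme markers had 881 and 913 TPM, with library 2 higher in 6 of 12 and library 1 higher in 4. Their ratios ran from 0.532 for Barx1 to 1.31 for Msx2, so the near-equal sums do not hold for each marker. Surface epithelium markers had 192 and 166 TPM, with library 1 higher in 3 of 5, erythroid markers had 11168 and 10272 TPM, with library 1 higher in 3 of 5, and white blood cell markers had 51.9 and 48.3 TPM, with library 1 higher in 1 of 4. No marker had a mean of 0, and the part of these differences in the ratios of the nucleolar genes was not tested.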

How the data were processed

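Total RNA sequencing of 2 pools of 1 group was used, with the library as the unit (n = 2). Per the deposited notes, the authors quantified each library against GENCODE M4 on mm10 (GRCm38), and the column names are those of RSEM. No source used here gives aligner or quantifier versions. Per the file headers, the authors estimated expected counts per gene and transcript, sharing out reads of several possible origins, and posterior mean counts. Per the file headers, TPM was computed by the authors over all entries, spike-ins included. The deposited IsoPct is the percent of a gene's TPM on a transcript. The posterior SD of a count is a deposited score of how firmly the authors' model divided the reads.

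Symbols, transcript types, coding lengths, exons and printed sequences were taken from GENCODE M21, also on GRCm38, by identifier without version. Of the 49 member transcripts, 47 had the deposited length, and those of Polr1a and Fbl differed. Entries with numeric identifiers (26248) and control sequences (97) were left out, with under 0.01% and about 7% of the counts.

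Expected counts were rounded for intervals. Ratios used TMM scaling over genes kept by filterByExpr (edgeR 4.0.16, R 4.3.3), with DESeq2 1.42.0 size factors, TMM without a filter, spike-ins and posterior counts as alternatives. On simulated counts, the ratio recovered 100% of 200 genes changed 1.5-fold, a larger change than any member showed. Those counts held counting error alone, for genes with a mean of at least 500 counts. The spread of 9.79% between pools was left out, so this recovery checks the calculation and not the calls in these pools. Recovery of changes as small as those of the members was not tested. Copies were transcripts aligned by blastn (BLAST+ 2.17.0) at 95% identity over at least 300 nt. Tables used Python 3.11.15 and pandas 2.3.3. Intervals hold counting error alone: no molecular identifiers were used, so reads may repeat a molecule.

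The 10 members, the lists and markers were chosen with earlier results of these data known. All members were named, and from each list the 3 highest genes and the lowest by mean TPM. Nop58, Gnl3, Nop14, Bop1, Cd3eap and single cell type markers were also named for their ratios after these were seen. Shares of all genes by the same rule are given beside the counts of members, of all 56 pathway genes together and of cell type markers. They are not given beside those of single pathway lists, and no test was made.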

Additional observations from a re-analysis of the deposited data

How the results depend on the processing

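Detection of all 10 members held under rescaling, posterior values, 10 TPM and either library alone. Rescaling TPM over annotated genes moved the median member level to 78.1 TPM, from 65.9 TPM, and raised all 10 means alike. The retained-intron share moved to 75.3% for Ncl, from 90.8%, and to 20.3% for the members' summed TPM, from 15.8%, when taken over expected counts; TPM divides by length and counts do not. At 1.1-fold, 4 members differed between libraries, against 0 beyond a ratio of 0.8 or its reciprocal. Polr1d over Polr1c was 0.564 for the transcripts of the complete subunits, against 1.01 over whole genes; this setting, the addition of copies and the removal of Ncl-205 were chosen after seeing the data. With either library alone, the median level ranged from 63.0 to 68.8 TPM, Polr1a over Polr1b from 1.00 to 1.1, Polr1d over Polr1c from 0.969 to 1.06, Ubtf exon inclusion from 46.0% to 49.96%, and the retained-intron share from 15.7% to 15.9% for the members and from 90.7% to 90.8% for Ncl. With copies added, the interval of the library ratio excluded 1 in 4 members, against 5, as Fbl then spanned 1. The median log2 library ratio stayed below 0 under each scaling, at -0.02 with spike-ins. No paired analysis was possible because there is 1 group. With 2 pools, the SD is itself uncertain, and shares of transcripts that differ by short exons depend on how reads were divided.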

Other observations

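Close relatives of 3 members were near the detection limit, and were chosen after their values were seen. Npm2, the oocyte relative of nucleophosmin, had 0.60 TPM in library 1 and 0.32 TPM in library 2. Fbll1, an intronless relative of fibrillarin, had 0.80 and 0.58 TPM. Ubtfl1, a relative of UBF described in early mouse embryos, had 0 counts in both libraries, where 3 counts in library 1 would be 0.0668 TPM. Against Npm1 with 1001 and 1086 TPM, Fbl with 30.62 and 34.48 TPM and Ubtf with 61.53 and 63.86 TPM, the ubiquitous member of each pair was the higher in both libraries.

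The antisense gene Gm26628, which overlaps Polr1a, had 0.24 TPM in library 1 and 0.03 TPM in library 2, from 8 counts and 1 count.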
